A study of Mus musculus with 6 samples.

Results

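Cell cycle and DNA replication genes were followed in cultured mouse hepatocytes exposed to tumour necrosis factor alpha (TNFα), an inflammatory cytokine. The 33 genes were fixed by symbol, with earlier results of these data known. They comprise 11 genes of G1 and its control, 10 genes of DNA replication and nucleotide supply, and 12 genes of S phase exit and mitosis. The platform's probe table named 70 probes for 31 of them, and listed none for the B-type cyclin gene Ccnb1 and the proliferation marker gene Mki67. Of the 31, 28 had a probe bright enough to be tested among 13438 genes. Ccna2, Ccnb2 and Bub1 did not.

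The RNA was that of hepatocytes isolated from male C57Bl/6J mice, hybridised to 6 Illumina arrays, 2 in each of 3 groups. Untreated cells were compared with cells exposed for 2 hours or for 2 days to recombinant murine TNFα at 2 ng/mL. All were plated on collagen in Williams' E medium, which held insulin at 1 nM, dexamethasone at 50 nM and 5% fetal calf serum. The labels name no animal, age or culture for a replicate, and the p-values thus rest on a spread between arrays that could be technical alone. No label gives the time in culture of the untreated cells, so exposure to TNFα for 2 days and a longer culture cannot be told apart.

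Hepatocytes of the adult liver are mostly quiescent and re-enter the cycle after injury or loss of tissue. D-type cyclins with the kinases Cdk4 and Cdk6, and E-type cyclins with Cdk2, drive G1 by phosphorylating the retinoblastoma protein, which frees E2F factors to transcribe replication genes. The proteins encoded by Mcm2 to Mcm7 form the ring-shaped helicase that is loaded at replication origins in G1 and unwinds DNA in S phase. Cdk1 with A- and B-type cyclins, the Aurora and Polo kinases and the anaphase-promoting complex then carry cells through mitosis. The protein p21, encoded by Cdkn1a, restrains these kinases. TNFα is known in the liver as a priming signal for regeneration and as an inducer of inflammatory genes.

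The deposited values are probe intensities on a linear scale. They seem to still hold their background, with a lowest value of 96.5 and a median between 143.16 and 143.22 on every array. A probe was tested when it exceeded its array's median on at least 2 arrays, and a gene was represented by its brightest passing probe. Changes are log2 differences with the standard error (SE) of a limma fit to all 6 arrays, and calls required a p under 0.05 after Benjamini-Hochberg adjustment over all genes tested. In untreated cells the median intensity was 264 for the 10 tested replication genes, 224 for the 11 G1 genes and 170 for the 7 tested mitosis genes, against 213 for all genes. With a floor this high, folds of dim probes are likely understated. Over all genes tested, arrays correlated at 0.995 to 0.996 within groups and at 0.982 to 0.991 between groups.

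After 2 hours of TNFα, 0 of the 28 tested genes were called by limma, where 1.76% of all genes were called higher and 1.06% lower. At an unadjusted p under 0.05, where 695 of all 13438 genes were higher and 888 lower, there was 1 of these genes. It was Plk1, which encodes a kinase of mitotic entry and read 168 and 175 in untreated cells and 151 and 144 at 2 hours (log2 -0.22, adjusted p = 0.361 by limma). The log2 changes of the 28 genes ran from -0.22 to 0.15 with a median of -0.04, beside -0.01 for all genes. For 7 genes both 2 hour arrays lay below both untreated arrays, and for 0 genes above; over all genes these shares were 22.4% and 18%. The 10 replication genes had a median log2 change of -0.12, 8 of them below 0, beside 7205 of all 13438 genes.

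When every passing probe was tested on its own, 1 of the 56 passing probes of these genes was called at 2 hours, higher, where 1.47% of all passing probes were called higher and 0.779% lower. It is the dimmest of 3 probes for Ccnd1, which encodes cyclin D1, and read 133 and 150 in untreated cells against 212 and 170 at 2 hours (log2 0.43, adjusted p = 0.048 in the probe-level limma fit). The brightest Ccnd1 probe gave 0.04 and the next -0.14, neither of them called.

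**Figure D1:**
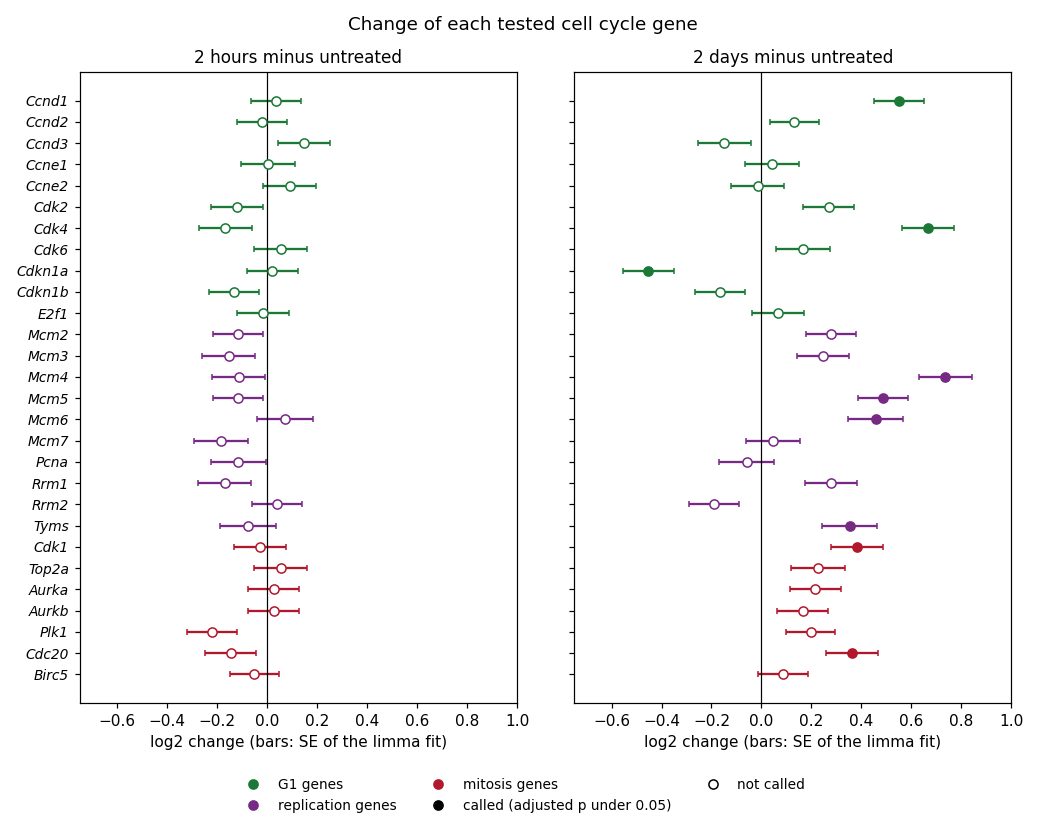
Log2 change (x axis) of each of the 28 tested cell cycle genes (y axis) at 2 hours (left) and 2 days (right) of TNFα against untreated cells, with bars for the SE of the limma fit and 2 arrays a group. At 2 hours no symbol is filled, whereas at 2 days 8 genes to the right of 0 and Cdkn1a to the left are filled, which marks an adjusted p under 0.05.

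After 2 days, 8 of the 28 genes rose and 1 fell by limma, where 6.74% of all genes were called higher and 5.92% lower. Those that rose were Ccnd1 and Cdk4 of the G1 genes, Mcm4, Mcm5, Mcm6 and Tyms of the replication genes, and Cdk1 and Cdc20 of the mitosis genes. The gene that fell was Cdkn1a. Changes were below 2-fold, from 1.28-fold for Cdc20 and Tyms to 1.67-fold for Mcm4. For 19 genes both 2 day arrays lay above both untreated arrays, for 4 below, and for 5 they overlapped; over all genes the first 2 shares were 26.1% and 23.5%. The median log2 change was 0.21 over the 28 genes and 0.01 over all genes. By group it was 0.07 for G1, 0.28 for replication and 0.22 for mitosis.

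The calls of Ccnd1, Cdk4, Mcm4 and Mcm5 held in all 16 alternative analyses, of which the single-probe fit was read at each gene's brightest probe. The other 5 did not, and the count of genes that rose was 4 after normexp background correction, 5 when a gene's probes were averaged, and 5 to 7 with 1 array left out. It was 5 without untreated replicate 2 and 5 without replicate 1 of the 2 day group.

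**Figure D2:**
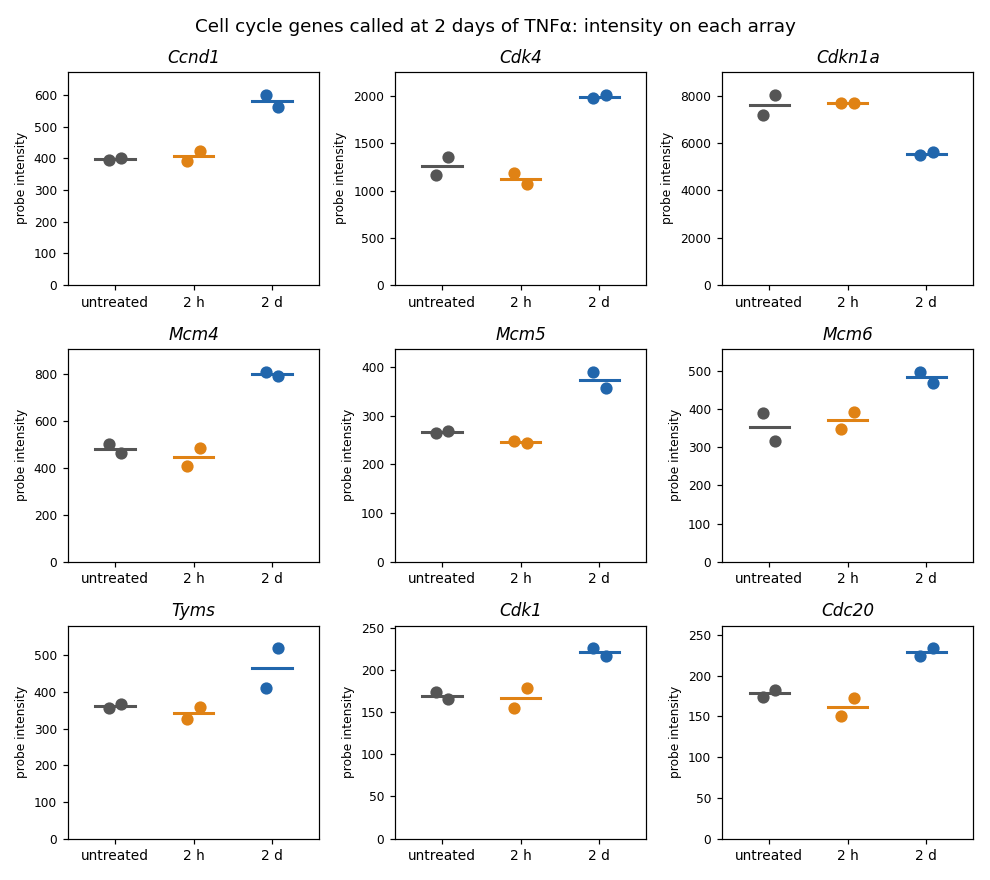
Probe intensity (y axes, linear, from 0) on each array for the 9 cell cycle genes called at 2 days against untreated cells, with 2 points a group and a line at their mean. In all 9 panels the 2 day points (blue) lie outside the range of the untreated points (grey), above them except for Cdkn1a, where 5486 and 5635 lie below 7181 and 8059.

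Promoter sequences from RefSeq (GRCm38.p6), 250 bases before to 50 bases after a gene's start, were found for 27 of the 33 genes in 30 windows. Stretches of 180 bases directly before the start are shown for 5 of the genes that rose at 2 days, 2 of the replication helicase, 2 of mitosis and Cdk4 of G1. Ccnd1 and Mcm4 were not matched, and the window of Tyms, which also rose, is not printed. Capitals mark the E2F letters TTTCCCGC, TTTCGCGC, TTTGCCGC or TTTGGCGC, the cell cycle homology region TTTGAA and the E box CACGTG, each searched on both strands.
Mcm5, chr8:75109329-75109508, plus strand: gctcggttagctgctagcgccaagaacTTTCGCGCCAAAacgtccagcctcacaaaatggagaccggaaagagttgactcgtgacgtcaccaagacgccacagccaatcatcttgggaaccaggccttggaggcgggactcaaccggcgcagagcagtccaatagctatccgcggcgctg
Mcm6, chr1:128359706-128359885, minus strand: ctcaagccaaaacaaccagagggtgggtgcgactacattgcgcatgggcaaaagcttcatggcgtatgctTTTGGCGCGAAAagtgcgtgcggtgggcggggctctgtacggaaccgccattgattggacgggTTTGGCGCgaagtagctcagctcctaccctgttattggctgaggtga
Cdk1, chr10:69352913-69353092, minus strand: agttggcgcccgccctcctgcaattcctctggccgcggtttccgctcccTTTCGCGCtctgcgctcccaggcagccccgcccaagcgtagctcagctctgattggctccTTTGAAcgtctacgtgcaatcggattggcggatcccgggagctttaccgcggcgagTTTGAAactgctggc
Cdc20, chr4:118437344-118437523, minus strand: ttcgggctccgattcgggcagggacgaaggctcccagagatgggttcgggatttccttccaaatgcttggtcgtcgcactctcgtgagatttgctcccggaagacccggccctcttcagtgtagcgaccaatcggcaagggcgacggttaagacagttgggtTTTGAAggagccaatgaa
Cdk4, chr10:127063355-127063534, plus strand: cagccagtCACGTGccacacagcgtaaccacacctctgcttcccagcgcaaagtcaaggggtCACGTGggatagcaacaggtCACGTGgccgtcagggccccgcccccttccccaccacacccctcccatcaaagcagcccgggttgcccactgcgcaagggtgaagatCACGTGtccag

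In the Mcm5 window the E2F letters begin 153 bases before the start and are followed by an overlapping match on the other strand. Mcm6 holds such a double match from 110 bases before the start and a single one at 47 bases. Cdk1 has the E2F letters at 131 bases, and the letters TTTGAA at 71 and 15 bases before its start. In Cdc20 TTTGAA stands 18 bases before the start. Cdk4 has no E2F or TTTGAA match in its window and has 4 E boxes. Tyms, not printed, also lacks both and has an E box 61 bases before its start. Over all 32851 windows the E2F letters were found in 2.26%, TTTGAA in 17.9%, the E box in 7.15% and the CCAAT box in 37.4%. Among the 30 windows of the cell cycle genes, 6 held the E2F letters (Cdk2, Mcm3, Mcm5, Mcm6, Mcm7 and Cdk1), 8 TTTGAA, 3 the E box and 21 the CCAAT box, which is not capitalised. Different motifs overlapped at 1 place. These matches are descriptions of letters. Of the genes with E2F letters, Mcm5, Mcm6 and Cdk1 were called at 2 days and Cdk2, Mcm3 and Mcm7 were not. Cdk4, Cdc20 and Tyms, with no match to these letters in their windows, were called. Whether the letters bear on the rise was not tested.

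Among the D-type cyclins Ccnd1 was the gene that rose. Its brightest probe read 394 and 400 in untreated cells, 392 and 422 at 2 hours, and 601 and 561 at 2 days. The 2 day arrays lay above the other 4. The rise against untreated cells was 1.46-fold (log2 0.55, SE 0.10, adjusted p = 0.000293 by limma). Its other probes gave log2 changes of 0.68 and 0.39 at 2 days, also called in the probe-level fit. That fit called 13 of the 56 probes of these genes higher and 4 lower at 2 days, beside 5.47% and 5% of all passing probes. Ccnd2, for cyclin D2, read 167 and 165 in untreated cells and 184 and 180 at 2 days (log2 0.13, adjusted p = 0.5 by limma). Ccnd3, for cyclin D3, read 1135 and 951 in untreated cells, 1174 and 1129 at 2 hours, and 954 and 921 at 2 days, with overlap between the untreated and 2 day arrays (log2 -0.15, adjusted p = 0.464 by limma).

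Cdk4, the catalytic partner of the D-type cyclins, read 1169 and 1356 in untreated cells, 1181 and 1066 at 2 hours, and 1977 and 2016 at 2 days. Its 2 day arrays stood clear of the other 4. The rise was 1.59-fold (log2 0.66, SE 0.10, adjusted p = 4.69e-05 by limma). A dimmer second probe gave 0.28 and was not called (adjusted p = 0.0776 in the probe-level limma fit). Cdk6, the other D-cyclin kinase, read 145 and 170 in untreated cells and 177 and 176 at 2 days (log2 0.17, adjusted p = 0.405 by limma).

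Cdk2, the kinase of the E-type cyclins, read 698 and 676 in untreated cells, 591 and 675 at 2 hours, and 845 and 811 at 2 days. Both 2 day values were the highest, but the difference from untreated cells was not called (log2 0.27, SE 0.10, adjusted p = 0.0921 by limma). The E-type cyclins Ccne1 and Ccne2 had log2 changes of 0.04 and -0.01 at 2 days, and their intensities lay between 140 and 186 on the 6 arrays. E2f1, an activating E2F factor, read 229 and 219 in untreated cells and 248 and 222 at 2 days (log2 0.07, adjusted p = 0.796 by limma).

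Cdkn1a, for the kinase inhibitor p21, was the gene that fell. Its brightest probe read 7181 and 8059 in untreated cells, 7726 and 7712 at 2 hours, and 5486 and 5635 at 2 days. The 2 hour arrays lay within the untreated range and the 2 day arrays below it. The fall at 2 days was -0.45 on the log2 scale (SE 0.10, adjusted p = 0.00246 by limma), and its other probes gave -0.72 and -0.52, both called. The call on the brightest probe was lost after normexp (-0.46, adjusted p = 0.115 by limma) and without untreated replicate 2 (-0.37, adjusted p = 0.0531 by limma). Cdkn1b, for the related inhibitor p27, read 191 and 199 in untreated cells, 179 and 177 at 2 hours, and 181 and 167 at 2 days (log2 -0.17 at 2 days, adjusted p = 0.358 by limma).

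Of the 6 helicase subunits, Mcm4, Mcm5 and Mcm6 rose at 2 days. Mcm4 read 502 and 461 in untreated cells, 409 and 484 at 2 hours, and 811 and 792 at 2 days. Its rise of 1.67-fold (log2 0.74, SE 0.11, adjusted p = 1.26e-05 by limma) was the largest of the 28 genes. Its 2 other probes, both below the filter, gave 0.11 and 0.24. Mcm5 read 264 and 269 in untreated cells, 248 and 244 at 2 hours, and 391 and 357 at 2 days, a 1.4-fold rise (log2 0.49, SE 0.10, adjusted p = 0.00105 by limma). For both genes the 2 day arrays lay above the other 4.

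Mcm6 read 390 and 318 in untreated cells, 349 and 393 at 2 hours, and 499 and 468 at 2 days, a 1.37-fold rise (log2 0.46, SE 0.11, adjusted p = 0.00512 by limma). Its untreated arrays were the furthest apart of the helicase genes. Its other passing probes gave 0.33 and 0.65 and were both called at 2 days. The call on the brightest probe was lost after normexp (0.59, adjusted p = 0.121 by limma), without untreated replicate 2 (0.31, adjusted p = 0.14 by limma) and without replicate 1 of the 2 day group (0.41, adjusted p = 0.0603 by limma).

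The remaining subunits were not called against untreated cells. Mcm2 read 234 and 216 in untreated cells, 209 and 206 at 2 hours, and 284 and 262 at 2 days (log2 0.28, adjusted p = 0.0738 by limma). Mcm3 read 148 and 152, then 137 and 133, then 162 and 195 (log2 0.25, adjusted p = 0.15 by limma). In both genes the 3 groups did not overlap, with the 2 hour arrays lowest and the 2 day arrays highest. Mcm7 read 247 and 276 in untreated cells and 283 and 256 at 2 days, which overlapped (log2 0.04, adjusted p = 0.876 by limma). Pcna, the sliding clamp of the replicative polymerases, lay at 120 to 152 on all 6 arrays, around the array median (log2 -0.06, adjusted p = 0.831 by limma).

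The genes of deoxynucleotide supply did not move together. Tyms, for thymidylate synthase, read 356 and 366 in untreated cells, 326 and 359 at 2 hours, and 410 and 519 at 2 days. Its 2 day arrays were far apart, and the rise of 1.28-fold (log2 0.35, SE 0.11, adjusted p = 0.0363 by limma) was the least stable of the 9 calls. It was lost in 8 of 16 alternatives, among them the mean of its probes (0.12), normexp (0.45), untreated replicate 1 left out (0.33), untreated replicate 2 left out (0.37), replicate 2 of the 2 day group left out (0.18), and either 2 hour array left out (0.35 each). Its 3 other passing probes, near background, gave -0.02 to 0.10.

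Ribonucleotide reductase, which makes deoxynucleotides, joins a large subunit from Rrm1 with a small one from Rrm2. Rrm1 read 253 and 292 in untreated cells, 256 and 228 at 2 hours, and 327 and 332 at 2 days (log2 0.28, adjusted p = 0.0897 by limma). A second Rrm1 probe gave 0.36 and was called (adjusted p = 0.0232 in the probe-level limma fit), and the dimmest gave -0.16. Rrm2 pointed the other way, with 207 and 208 in untreated cells, 208 and 219 at 2 hours, and 177 and 187 at 2 days (log2 -0.19, adjusted p = 0.263 by limma). Its second passing probe read 211 and 202 in untreated cells and 162 and 154 at 2 days, and was called lower (log2 -0.39, adjusted p = 0.0141 in the probe-level limma fit). Averaged over its probes Rrm2 was also called lower.

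All 7 tested mitosis genes had both 2 day arrays above both untreated arrays, beside 26.1% of all genes, and Cdk1 and Cdc20 passed the test, beside 6.74%. Cdk1, the mitotic kinase, read 174 and 165 in untreated cells, 155 and 179 at 2 hours, and 226 and 217 at 2 days (1.3-fold, log2 0.38, SE 0.10, adjusted p = 0.0132 by limma). Its other probes gave -0.12 and, below the filter, -0.17, and the mean of its passing probes gave 0.13 and no call. Its call was also lost after normexp (0.73, adjusted p = 0.0721 by limma), without untreated replicate 2 (0.34) and without replicate 1 of the 2 day group (0.35).

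Cdc20, an activator of the anaphase-promoting complex, read 174 and 183 in untreated cells, 150 and 173 at 2 hours, and 224 and 234 at 2 days (1.28-fold, log2 0.36, SE 0.10, adjusted p = 0.0187 by limma). Its 3 other probes gave 0.09 to 0.28 and were not called. The call was lost with the mean of its probes (0.23), after normexp (0.66), without untreated replicate 1 (0.32) and without either 2 day array (0.39 without replicate 1 and 0.33 without replicate 2). Plk1, given above at the earlier times, read 194 and 199 at 2 days, above the other 4 arrays. The genes not called against untreated cells were Plk1 (0.20), Top2a for topoisomerase II (0.23), the Aurora kinases Aurka (0.22) and Aurkb (0.16), and Birc5 for survivin (0.09), with adjusted p from 0.205 to 0.712 by limma. The brightest probe of Top2a exceeded the array median on 1 of 2 untreated arrays. The untested genes Ccna2, Ccnb2 and Bub1 had mean intensities of 123 to 141 in untreated cells and 123 to 131 at 2 days, below the array median.

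**Figure D3:**
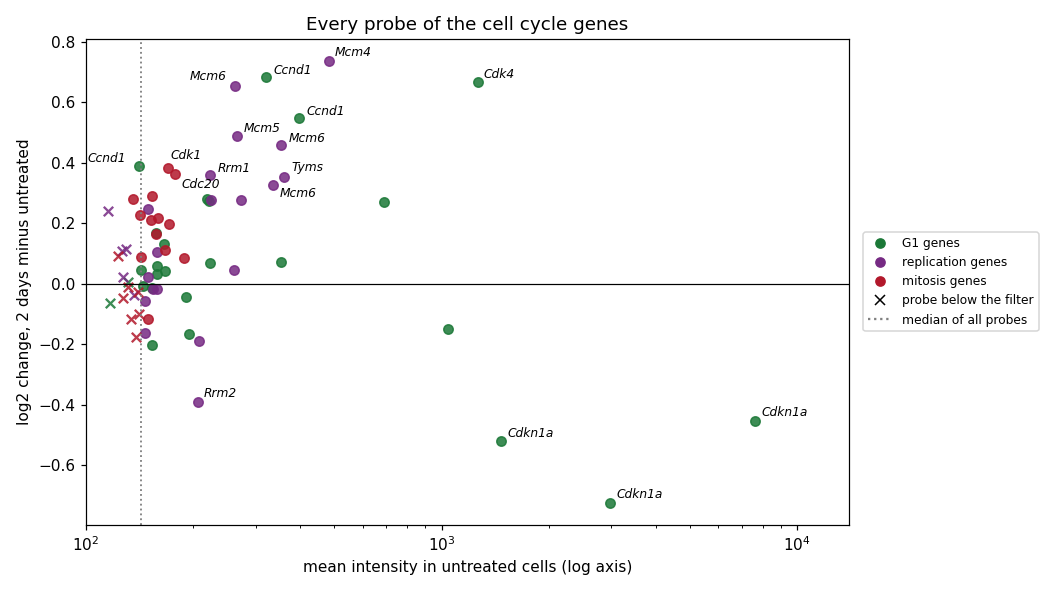
Log2 change at 2 days against untreated cells (y axis) of all 70 probes of the cell cycle genes, against their mean intensity in untreated cells (x axis, log scale); names mark probes called in the probe-level limma fit, crosses mark probes below the filter. Mitosis probes (red) crowd at the array median near 143, and the 3 Cdkn1a probes, with means from 1469 to 7620, lie below 0.

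Set against the 2 hour arrays, 13 of the 28 genes were higher at 2 days and 1, Cdkn1a, was lower by limma, where 8.63% of all genes were called higher and 6.67% lower. This comparison and the one with untreated cells use the same 2 day arrays. For 20 genes both 2 day arrays lay above both 2 hour arrays and for 3 below, beside 29.4% and 23.4% of all genes. Of the 56 passing probes of these genes 18 were called higher and 4 lower, beside 6.83% and 5.94% of all passing probes. The largest differences were those of Mcm4 (1.8-fold, log2 0.85, adjusted p = 1.44e-06 by limma) and Cdk4 (1.78-fold, log2 0.83, adjusted p = 1.78e-06 by limma). Cdk2, Mcm2, Mcm3, Rrm1 and Plk1 were called in this comparison and not against untreated cells. For these 5 genes the mean at 2 hours was below the untreated mean. The differences were 0.42 for Plk1, 0.45 for Rrm1, 0.40 for Mcm3 and 0.39 for both Mcm2 and Cdk2, with adjusted p from 0.00345 to 0.00951 by limma.

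Several of these calls were lost when 1 array was left out, which also lowers the precision of the fit. When replicate 1 of the 2 hour group was left out, the count higher was 8, and Cdk2 (0.29), Mcm3 (0.42), Mcm6 (0.30), Tyms (0.36) and Cdk1 (0.31) lost their calls. Without its replicate 2, Mcm2 (0.38), Mcm3 (0.37), Rrm1 (0.37) and Plk1 (0.38) lost theirs. Without replicate 1 of the 2 day group the same happened to Cdk2 (0.36), Mcm2 (0.34), Mcm6 (0.34) and Cdk1 (0.38), and without its replicate 2 to Mcm3 (0.26) and Tyms (0.26). Averaging probes ended the calls of Cdk2 (0.20), Rrm1 (0.18), Tyms (0.16), Cdk1 (0.18) and Cdc20 (0.20). Ccnd3 (-0.30, adjusted p = 0.0579 by limma) was called lower under cyclic loess, with the compared groups alone and without either untreated array. Normexp gave 9 genes higher and 0 lower, with log2 differences of 0.98 for Mcm3, 0.99 for Cdc20 and 0.91 for Plk1.

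Other genes of the same processes were taken from lists of 46 replication, 49 mitosis and 30 G1 genes that are not among the 33. At 2 days 5 of 39 tested replication genes rose and 0 fell by limma, beside 6.74% and 5.92% of all genes. Without adjustment 0 had a p under 0.05 for a fall, beside 1403 of all 13438 genes. Uhrf1, a factor that couples DNA methylation to replication, rose 1.42-fold (log2 0.51, adjusted p = 0.000838 by limma). Fen1, the nuclease that trims Okazaki fragments, rose 1.38-fold (0.46), and the chromatin assembly subunits Chaf1b and Chaf1a had log2 changes of 0.37 and 0.35. Fen1 lost its call without replicate 2 of the 2 day group (0.39). Chaf1b lost its call without untreated replicate 1 (0.31) or replicate 1 of the 2 day group (0.32), and Chaf1a without untreated replicate 2 (0.28) or either 2 day array (0.31 and 0.38). The median over the 39 genes was 0.13, with 35 above 0, beside 6946 of all 13438 genes. Without 1 array the count was 2 to 7; it was 3 without untreated replicate 1, 2 without replicate 1 and 2 without replicate 2 of the 2 day group, and after normexp 1, Uhrf1 (0.86). Against 2 hours 9 were higher and 0 lower, beside 8.63% and 6.67% of all genes, led by Uhrf1 (0.62), Fen1 (0.61), the single-strand binding subunit Rpa3 (0.48) and Dbf4 (0.46), the activator of the Cdc7 kinase. The count was 5 without replicate 2 of the 2 hour group, 5 without replicate 1 of the 2 day group and 3 after normexp.

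Of 34 tested mitosis genes 3 rose at 2 days and 0 fell by limma, a share near the 6.74% of all genes called higher. Without adjustment 1 had a p under 0.05 for a fall, beside 1403 of all 13438 genes. Those that rose were Kif22 (0.51), a chromosome-bound kinesin, Cenpa (0.50), the centromeric histone, and Prc1 (0.47), which bundles spindle microtubules at anaphase. The median was 0.10. Kif22 lost its call without replicate 2 of the 2 day group (0.27), and Prc1 without its replicate 1 (0.28) or without untreated replicate 2 (0.36). After normexp 0 were called, with log2 changes of 0.77, 0.63 and 0.65. Against 2 hours 8 were higher and 1 lower, beside 8.63% and 6.67% of all genes, led by Prc1 (0.64) and Cenpa (0.58), with Kif22 at 0.52. This Kif22 difference was not called without replicate 2 of the 2 hour (0.45) or 2 day group (0.29). The lower one was Kif23 (-0.53), a cytokinesis kinesin whose probes averaged to -0.13 without a call. Without replicate 2 of the 2 day group 4 were called. Of the 15 untested genes of this list, which include Tpx2, Ube2c and Hmmr, all lacked a passing probe.

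The G1 list split. Btg1, an antiproliferative gene, rose at both times, from 3008 in untreated cells to 6006 at 2 hours (2-fold, log2 1.00) and 5115 at 2 days (1.7-fold, log2 0.76), in all 16 alternatives. Tob1, of the same family, fell by 0.52 at 2 hours and by 0.42 at 2 days. These were the 2 of 26 called at 2 hours, beside 1.76% of all genes higher and 1.06% lower. At 2 days 3 were higher and 3 lower, beside 6.74% and 5.92%, among them Rb1 (-0.41), for the retinoblastoma protein, and Ccnh (0.40), a subunit of the kinase that activates other cyclin-dependent kinases. Tob1 lost its call without untreated replicate 2 (-0.39 at 2 hours and -0.30 at 2 days), and at 2 hours also without replicate 1 (-0.53) or replicate 2 (-0.50) of that group. Without replicate 2 of the 2 day group Tob1 (-0.27) and Rb1 (-0.35) were not called, and without untreated replicate 1 Rb1 was at -0.21. Ccnh lost its call at 2 days in 9 of 16 alternatives, which were cyclic loess, normexp, no filter, averaged probes, the compared groups alone and 4 of the left-out arrays. These were untreated replicate 2 (0.25), replicate 1 of the 2 day group (0.21) and each 2 hour array (0.40 for both). Ccnh alone was called against 2 hours (0.47), and was lost without replicate 1 of the 2 hour (0.31) or 2 day group (0.29). The 6 calls at 2 days became 3 without untreated replicate 1, 2 without untreated replicate 2 and 2 without replicate 2 of the 2 day group. Counts of 2, 6 and 1 became 1, 1 and 0 after normexp.

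Because Cdkn1a is a target of p53, other genes with that attribute were read from a list of 25, of which 23 were tested. They moved in both directions. At 2 hours Fas (1.13), a death receptor, rose, and Plk3 (-0.69) and Gadd45a (-0.54) fell, beside 1.76% of all genes higher and 1.06% lower. Gadd45a was at -0.25 with no call without untreated replicate 2, and was not called without either 2 hour array (-0.54 and -0.55). At 2 days 2 rose and 4 fell, beside 6.74% and 5.92% of all genes, led by Sesn1 (-1.81), a stress-inducible regulator of growth signalling, Plk3 (-0.88), Ddit4 (-0.71), also known as a glucocorticoid-inducible gene, and Phlda3 (0.65). Phlda3 lost its call without untreated replicate 1 (0.36). The median was -0.05 at 2 days. Against 2 hours 5 were higher and 5 lower, beside 8.63% and 6.67% of all genes, with Sesn1 at -1.43 and Phlda3 at 0.76. The count was lower when either 2 hour array was left out.

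**Figure D4:**
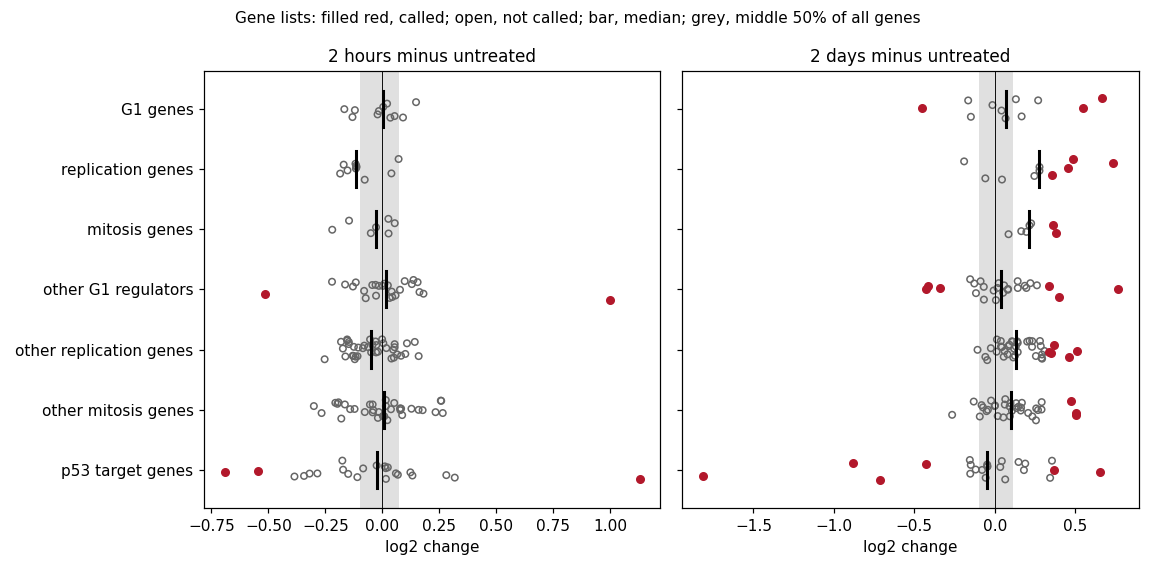
Log2 change (x axis) at 2 hours (left) and 2 days (right) of the tested genes of 7 lists (y axis), each point a gene, red where called by limma at an adjusted p under 0.05, with the list's median as a bar and the middle 50% of all genes in grey. At 2 days the medians of the replication (0.28) and mitosis (0.22) genes lie to the right of the grey band, and that of the p53 target genes (-0.05) lies within it.

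Of 14 hepatocyte markers 13 had a passing probe, and markers of hepatocytes and of other liver cells differed at 2 days. Of all genes 6.74% were called higher and 5.92% lower at 2 days. Of the 13 tested hepatocyte markers 7 fell (among them Cps1, Arg1 and Hnf4a) and 0 rose by limma. Those not called were Apob (log2 -0.01), Trf (-0.14), Serpina1a (-0.22), Ttr (-0.28), Alb and Fgb. The probes of Alb and Fgb had means of 160 and 133 in untreated cells, near the array median. The summed intensity of the 13 was 161433 to 169639 in untreated cells and 105031 to 106044 at 2 days. Most of that fall lay in Apoa1 (mean 41566 in untreated cells and 23578 at 2 days), Arg1 (15202 and 2119) and Cps1 (13588 and 1573). Of 12 macrophage markers 5 were higher (C1qa, C1qb, C1qc, Cd163 and Mpeg1), with sums of 2095 to 2123 and 2424 to 2646. Marco (log2 0.30), Csf1r (0.08), Vsig4 (0.08), Tyrobp (0.04), Adgre1 (-0.04), Lyz2 (-0.09) and Timd4 (-0.14) were tested and not called. The median intensity of the 12 in untreated cells was 159, against 213 for all genes. Cd68, Clec4f and Cd5l had no passing probe or none listed. Stellate or fibroblast markers had 2 of 9 higher, Acta2 and Timp1, and 1 lower, Reln, with sums of 3090 to 3556 and 4003 to 4668. Most of that gain lay in Acta2 (mean 1578 in untreated cells and 2507 at 2 days), and the list's median log2 change was 0.04. Lrat, Pdgfrb, Col3a1, Lum and Hand2 had no passing probe. Bile duct markers had 3 of 6 higher, Sox9, Cldn4 and Krt23, with sums of 5062 to 5572 and 10215 to 11736. Most of these sums lay in Cldn4 (mean 3678 in untreated cells and 7110 at 2 days) and Sox9 (847 and 2912). The tested markers Krt19 (log2 0.19), Krt7 (0.09) and Muc1 (0.06) were not called. Epcam, Spp1 and Cftr were among those not tested. Endothelial markers had 1 of 11 higher and 1 lower, near the shares of all genes, with sums of 2114 to 2289 and 2178 to 2185. Of 3 tested lymphocyte or neutrophil markers limma called 0, and 0 had a p under 0.05 before adjustment. Of all 13438 genes 1658 had such a p for a rise at 2 days and 1403 for a fall. At 2 hours the sums were 161952 to 164772 for hepatocyte and 2028 to 2052 for macrophage markers. They were 3210 to 3410 for stellate and 5378 to 6091 for bile duct markers. Reln and Sox9 were called higher at 2 hours, beside 1.76% of all genes. The part of these cells in the rise of cell cycle transcripts was not tested. More cells of a type and more RNA per cell cannot be told apart in these bulk samples.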

How the data were processed

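RNA of 6 samples was measured on single-colour Illumina arrays. The deposited table holds intensity values for 45281 probes; per the labels' protocols cRNA was biotinylated with a kit for Illumina arrays. The scanner software and the normalization are not given in the sources used here. All 6 deposited intensity columns share a lowest and highest value and differ by at most 0.333% at any rank, as after quantile normalization. Their lowest value of 96.5 would be seen with background left in, or with an added offset.

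Of the probes 34885 had 1 gene symbol, 18 several, and 10378 were not listed. Values were taken to log2 without scaling. Probes over the 50th percentile in at least 2 arrays passed (26272), and each of 13438 genes took its passing probe with the highest mean. A mean per group was fitted with limma 3.58.1 in R 4.3.3, with 3 residual and 21.2 prior degrees of freedom, so the spread is mostly that shared over genes. Only 6 arrays limit the precision.

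Genes and lists were chosen with earlier results of these data known. Those of the 33 genes called in any comparison are given with every array's value; up to 4 called genes of each wider list and comparison are named. The fits were tested on simulated data with independent normal noise of the fitted spread. Planted changes about as large as that of Mcm2 at 2 days (log2 0.28) were recovered in 25.5% to 30% of cases. Those about as large as that of Mcm5 (0.49) were recovered in 87% to 90.75%. Of the calls 4.2% to 5.38% were false. Genes not called can thus have changed by amounts of the smaller size. Alternatives were cyclic loess, median centring, normexp (offset 16), no filter, the 70th percentile, averaged or single probes, trended and robust variances, the compared groups alone, a replicate block, and leaving out each array. Deviations of same-numbered arrays correlated at -0.15 to 0.04, so the numbers were not taken to pair arrays.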

Additional observations from a re-analysis of the deposited data

Results flagged for a closer look

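For 14 genes the change at 2 days differed from the change at 2 hours by the test of the difference itself, which is the limma contrast of the 2 times. They are 13 of 28 higher and 1 lower, beside 8.63% and 6.67% of all genes in this contrast. Both changes share the untreated arrays, which cancel in it. The differences on the log2 scale were 0.85 for Mcm4, 0.83 for Cdk4, 0.60 for Mcm5, 0.51 for Ccnd1, 0.51 for Cdc20, 0.45 for Rrm1, 0.43 for Tyms, 0.42 for Plk1, 0.41 for Cdk1, 0.40 for Mcm3, 0.39 for Mcm2, 0.39 for Cdk2, 0.39 for Mcm6 and -0.47 for Cdkn1a. Time in culture may differ between the 2 groups and is not labelled.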

How the results depend on the processing

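The 9 calls at 2 days and the 14 between the times kept their direction in every alternative that tested them. Mcm3 failed the 70th percentile filter. Trended variances, the replicate block and the compared groups alone cannot alter a log2 change, and single probes were read at the same brightest probe. Other passing probes of Cdk1 (-0.12) and Tyms (-0.02) went the other way at 2 days, whereas those of Ccnd1, Cdk4, Mcm6, Cdc20 and Cdkn1a did not. At 2 hours, testing every probe on its own gave 1 called gene, higher, and 1 other mitosis gene; of the 28 changes, none called, 13 kept their sign throughout. Against untreated cells at 2 days, normexp gave 4 called genes (4 higher, 0 lower), averaged probes 5 higher and 2 lower, and single probes 2 lower. Between the times normexp gave 9 called and 0 lower, averaged probes 8 higher and 2 lower, and cyclic loess, single probes and the compared groups alone 2 lower each. For the other G1 regulators normexp gave 1, 1 and 0 called at 2 hours, 2 days and between the times, averaged probes 2 and single probes 3 between the times. Normexp also gave 1 and 3 other replication genes at 2 days and between the times, 0 other mitosis genes at 2 days, and 1, 3 and 2 p53 target genes.

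Leaving out 1 array gave 0 called genes at 2 hours, 5 to 8 at 2 days (5 to 7 higher, 0 to 1 lower) and 9 to 15 between the times (8 to 13 higher, 1 to 2 lower). For other G1 regulators the ranges were 1 to 2, 2 to 5 and 0 to 1; for other replication genes 2 to 7 at 2 days and 5 to 9; for other mitosis genes 2 to 3 and 4 to 9; for p53 target genes 2 to 3, 4 to 6 and 6 to 11. With the replicate block 8 genes were higher and 1 lower at 2 days, 13 and 1 between the times, and it changed no call of the 28 genes. The causes were not tested, beyond fewer arrays. Of the 12 mitosis genes 3 had only probes below the filter. Over all genes normexp called 81 higher and 14 lower at 2 hours, 348 and 306 at 2 days, and 413 and 397 between the times, against 237 and 142, 906 and 795, and 1160 and 896.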
